A study of Macaca mulatta with 2 samples.

Results

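The genes described here encode the subunits of the receptors for glutamate and GABA in the macaque optic nerve. They were picked by gene symbol alone and not by their level. The rule took the AMPA (*GRIA*), kainate (*GRIK*), NMDA (*GRIN*), delta (*GRID*) and metabotropic (*GRM*) glutamate receptor genes, the GABA-A subunits (*GABR*) and the GABA-B subunits (*GABBR*). It found 46 genes among the 16684 genes listed, of which 25 were for glutamate and 21 for GABA. Total RNA of untreated, wild-type rhesus macaque optic nerves was sequenced as 2 libraries of 1 condition, named Rep1 and Rep2. The paper's methods name an adult male as the source of the nerves, taken after death, whereas the text deposited with the data names 2 animals, so the libraries may share an animal. Values are TPM, the share of a gene in the reads of its library after division by gene length, scaled so that each library sums to 1000000, so that levels of different genes can be compared.

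Glutamate opens ionotropic receptors, which are tetramers of AMPA, kainate or NMDA subunits, and activates metabotropic receptors, which signal through G proteins. GABA opens the chloride channels of the GABA-A family, which are pentamers, and activates the GABA-B receptor, a dimer coupled to G proteins. The optic nerve holds the axons of retinal ganglion cells, and their cell bodies and most synapses lie elsewhere. Its glia nevertheless carry such receptors. Oligodendrocytes and their precursors respond to glutamate through AMPA, kainate and NMDA receptors, astrocytes and precursors respond to GABA, and overload of these receptors injures white matter. Other receptors of the family are best known from retinal interneurons, among them the GABA-A rho subunits of bipolar cells.

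The libraries differed in depth and in their cell markers, and both bear on every value below. A gene of equal TPM had 17.2 times as many reads in Rep2 as in Rep1. The smallest whole read numbers that fit the values of a gene are given as "at least" so many reads. They are lower bounds, as any common multiple of them fits equally well. All 6 oligodendrocyte markers and all 6 astrocyte markers were above 0 in both libraries, as the label of the tissue requires. Their summed levels were 45001 and 1089 TPM in Rep1, and 206961 and 7264 TPM in Rep2. By their sums, markers of oligodendrocyte precursors (44.4 and 287 TPM), microglia (206 and 334 TPM) and endothelial and mural cells (81.5 and 309 TPM) were also higher in Rep2. Of the 6 microglial markers, 1 was higher in Rep1 and 5 were higher in Rep2. Markers of photoreceptors, retinal interneurons and neurons in general were higher in Rep1 by their sums. The 8 photoreceptor markers summed to 4027 TPM in Rep1 and 4.76 TPM in Rep2, with 7 of 8 above 0 in each. *ARR3* was listed at 0 in Rep1 and *CRX* in Rep2. The bipolar cell markers other than *GRIK1* summed to 422 TPM in Rep1, with *LRTM1* listed at 0, and to 131 TPM in Rep2, where *PCP2* made up most of the sum and *ISL1* was listed at 0. The 8 horizontal and amacrine cell markers summed to 332 and 40.8 TPM, with 6 higher in Rep1 and 2 higher in Rep2. *GAD1* alone gave 189 TPM of the sum in Rep1. *SLC6A9* (21.7 and 26.2 TPM), which made up most of the sum in Rep2, and *CALB1* (2.84 and 8.60 TPM) were higher in Rep2. *ONECUT1* and *ONECUT2* were listed at 0 in Rep2 but were also under 1 TPM in Rep1. The 6 general neuronal markers summed to 2277 and 31.1 TPM. Of the 8 ganglion cell markers, 6 were above 0 in at least 1 library, with 1 higher in Rep1 and 5 higher in Rep2. They summed to 388 and 1739 TPM, of which *THY1*, which other cells also make, gave 203 and 1535 TPM, while *RBPMS* was higher in Rep1 (155 and 99.9 TPM) and *NEFL* was level (3.63 and 3.65 TPM). Of this list, *POU4F2* and *SLC17A6*, which mark their cell bodies, were listed at 0 in both. Less RNA of a cell type and fewer cells of it cannot be told apart in such bulk samples.

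RefSeq's annotation of Mmul_10, the build the authors used, holds all 46 members. The family is old and stretches of its coding sequences are alike. The 36 coding bases most alike among the 18 ionotropic glutamate members code for the end of the M3 helix, next to the gate of the channel. They are shown for the 4 AMPA members, *GRIK1* (kainate), *GRID1* (delta), *GRIN1* and *GRIN3B* (both NMDA), to show how alike the members are. Capitals mark bases that differ from *GRIA2*, where the window covers bases 1900 to 1935 of the coding sequence.
GRIA2: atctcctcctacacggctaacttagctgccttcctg
GRIA1: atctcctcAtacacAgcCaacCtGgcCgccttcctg
GRIA3: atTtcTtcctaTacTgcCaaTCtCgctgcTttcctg
GRIA4: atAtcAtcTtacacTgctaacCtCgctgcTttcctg
GRIK1: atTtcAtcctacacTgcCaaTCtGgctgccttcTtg
GRID1: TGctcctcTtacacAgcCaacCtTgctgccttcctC
GRIN1: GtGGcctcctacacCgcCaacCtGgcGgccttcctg
GRIN3B: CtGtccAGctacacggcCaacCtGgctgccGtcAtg
Of the 36 bases, 30 were shared with *GRIA2* by *GRIA1*, 29 by *GRIA4* and 27 by *GRIA3*. *GRIK1*, *GRIN1* and *GRID1* shared 28 each, and *GRIN3B* shared 27.

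Among the 19 GABA-A members, the 36 coding bases most alike code for the M2 helix, which lines the chloride channel. They are shown for 5 members that are described below, with capitals for bases that differ from *GABRB1* (bases 835 to 870 of its coding sequence).
GABRB1: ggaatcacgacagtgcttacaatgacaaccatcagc
GABRA3: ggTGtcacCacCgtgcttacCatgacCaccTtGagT
GABRA5: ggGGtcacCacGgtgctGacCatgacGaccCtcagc
GABRE: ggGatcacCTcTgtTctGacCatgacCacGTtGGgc
GABRR2: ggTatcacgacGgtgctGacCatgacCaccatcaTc
*GABRR2* shared 30 of the 36 bases with *GABRB1*, *GABRA5* 28, *GABRA3* 27 and *GABRE* 24.

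Identical stretches were short in spite of this likeness. Coding bases were compared in 1 transcript per gene, the one with the longest coding sequence. The longest identical run within a class was then 62 bases long, between *GABRR1* and *GABRR2*, which are neighbours on chromosome 4. It is shown because any shorter read from it fits both genes.
GABRR1 and GABRR2: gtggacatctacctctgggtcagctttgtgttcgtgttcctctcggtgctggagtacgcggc
In these transcripts the next was 44 bases, between *GRIK1* and *GRIK2*, and the longest of an AMPA pair was 40 bases, between *GRIA1* and *GRIA2*. When the transcript of each member was cut into all words of 50 bases, 6 of 5706 words of *GRIA2* occurred in transcripts of another gene, *GRIA4*. This search covered all transcripts of other genes, so it found a longer run than the 23 bases of this pair in the coding comparison. For *GABRR1* 0.962% of the words did so and for *GABRR2* 0.729%. On the opposite strand, 3.19% of the words of *GRID1* occurred in an uncharacterized gene and 1.03% of those of *GRIN3B* in *TMEM259*. On that strand, 0.400% of the words of *GABRA4* occurred in *GABRB1*, and exons of *GRIK1* and *GRM5* share 378 and 186 bases with another gene each. *GABRR1*, *GABRR2*, *GRIA2* (0.105% of words) and *GRIA4* (0.0182%) share words on the same strand. Their levels are uncertain by an amount that these shares do not set. The same holds for *GRID1*, *GRIN3B*, *GRIK1*, *GRM5*, *GABRA4* and *GABRB1*, since strand use in counting is not given in the sources used here.

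Of the 46 members, 42 were above 0 in at least 1 library. *GABRA6*, *GABRG1*, *GABRP* and *GABRR3* were listed at 0 in both. A mean of at least 1 TPM was reached by 30 members (65.2%), against 70.5% of all listed genes. Their summed level was 1248 TPM (0.125% of the library) in Rep1 but 181 TPM (0.0181%) in Rep2. Without *GRIA2* the sums were 472 and 161 TPM. Across the 42 genes the levels in Rep1 and Rep2 had a Spearman rho of 0.0284, a description over genes that share both libraries. The set of subunits therefore has to be described for each library, and the mean of both belongs to neither.

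**Figure D1:**
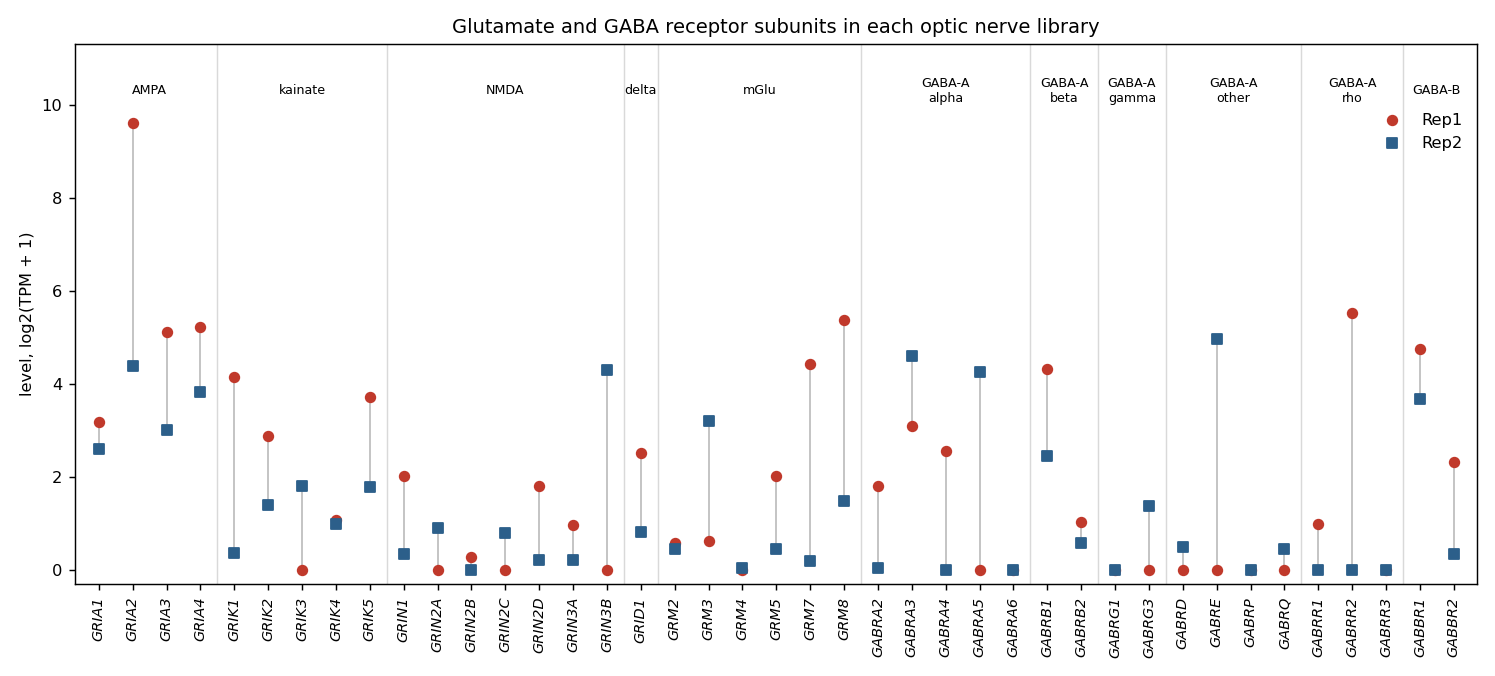
Level of each subunit described here as log2(TPM + 1), grouped by receptor class (mGlu, metabotropic glutamate), with circles for Rep1, squares for Rep2 and a line joining the values of a gene. Where both are at 0 the square covers the circle, and the circle of *GRIA2*, at 777 TPM in Rep1, stands above all others.

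Differences between the libraries were taken as log2(TPM + 1) in Rep1 minus Rep2, with a change of at least 2-fold on this scale as the limit. Of the 42 members above 0, 22 (52.4%) were at least 2-fold higher in Rep1, against 14.8% of the 14693 genes that had a value above 0 in either library. Only 7 members (16.7%) were at least 2-fold higher in Rep2, against 51.3% of those genes. The median difference over the members was 1.24, whereas the median over all those genes was -1.07. Scaling Rep1 by the median of ratios, which corrects a log2 shift of -1.19 in Rep1, gave a median of 2.38 over the members and -0.47 over all genes. On that scaling 61.9% of the members were at least 2-fold higher in Rep1 and 14.3% in Rep2, against 24.4% and 37.0% of all genes. Before such scaling, the sums of the photoreceptor, bipolar, amacrine and general neuronal markers given above were also higher in Rep1, and those of the glial markers in Rep2. Their part in the result was not tested. There is no group comparison in 1 condition, and no p was computed, because with 2 libraries an exact two-sided sign test stops at 0.5.

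Zeros were read against depth. Of the 38 members above 0 in Rep2, 11 (28.9%) were listed at 0 in Rep1, close to the 30.4% of all genes, so a 0 in Rep1 says little about a subunit. The converse was rare among all genes, at 0.887%, but 4 of the 31 members above 0 in Rep1 (12.9%) were listed at 0 in Rep2. Among them were *GABRA4*, *GABRR1* and *GABRR2*.

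**Figure D2:**
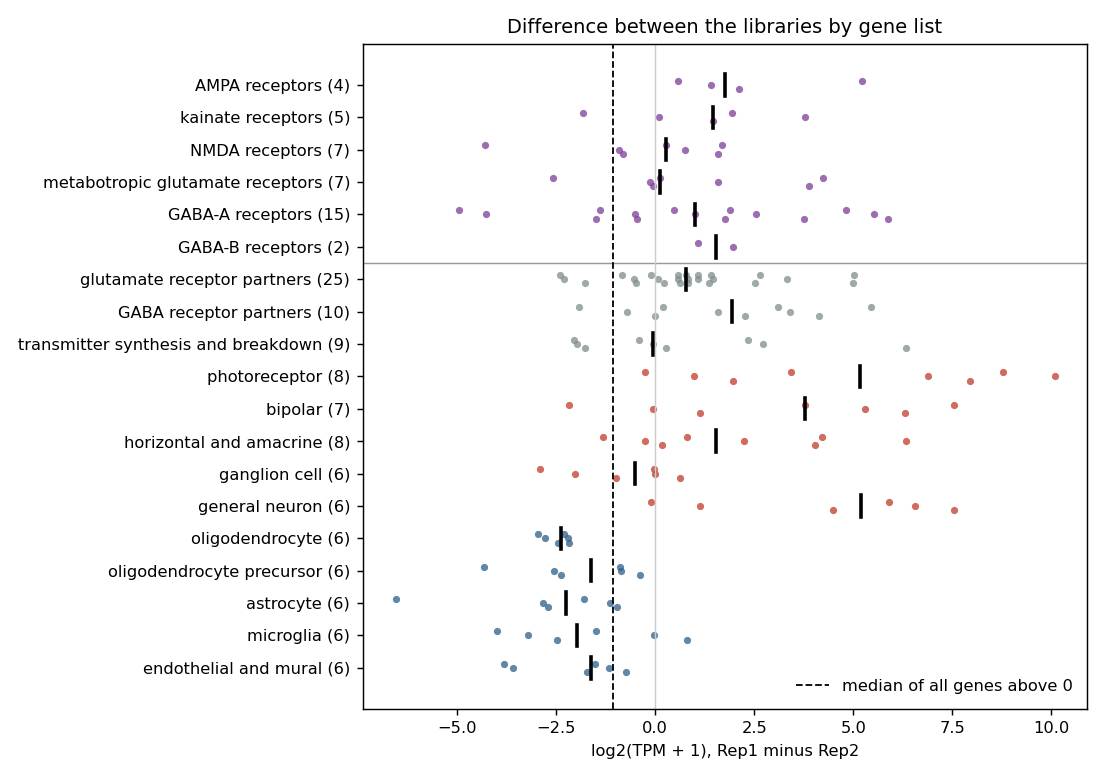
Difference between the libraries in log2(TPM + 1), Rep1 minus Rep2, for each gene above 0 in at least 1 library (points) and the median of each list (black bars), with receptor classes above the line and partner genes and cell markers below it. The number of genes is in brackets and the dashed line is the median of all genes above 0, at -1.07. The medians of the 6 receptor classes drawn lie to the right of it.

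AMPA receptors carry fast excitatory signals, and all 4 of their subunits were above 0 in both libraries. *GRIA2*, whose edited RNA makes the channel nearly impermeable to calcium, had the highest mean of all members and the highest level in Rep1, but stood below *GABRE* and *GABRA3* in Rep2. It lies on chr5:154862825-155012792 on the plus strand and stood at 777 TPM in Rep1 against 19.8 TPM in Rep2. These values rested on at least 600 and 263 reads and gave a mean of 398 ± 535 TPM (SD, n = 2 libraries), at percentile 97.5 of the genes above 0. Rep1 was 39.2-fold above Rep2, the largest fold among AMPA subunits. *GRIA4* was at 36.4 TPM in Rep1 against 13.1 TPM in Rep2, from at least 53 and 329 reads (mean 24.8 ± 16.4 TPM). *GRIA3* was at 33.7 and 7.08 TPM (20.4 ± 18.9 TPM). *GRIA1* was at 8.11 and 5.11 TPM (6.61 ± 2.12 TPM), which made it the AMPA subunit that differed least, by 0.58 on the log2 scale. Thus *GRIA2* led the class in both libraries and *GRIA1* was the lowest in both. Its lead was far from equal, since *GRIA2* made up 90.8% of the class TPM in Rep1 and 43.9% in Rep2.

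Kainate receptors need one of *GRIK1* to *GRIK3* to form channels, whereas *GRIK4* and *GRIK5* join them as partners. *GRIK1*, which also served as a bipolar cell marker, was at 16.9 TPM in Rep1 against 0.291 TPM in Rep2, from at least 27 and 8 reads. *GRIK5* was at 12.2 and 2.43 TPM and *GRIK2* at 6.32 and 1.66 TPM, the latter from at least 2 and 9 reads. *GRIK4* was nearly level, at 1.12 TPM in Rep1, which may rest on as little as 1 read, and 0.977 TPM in Rep2. *GRIK3* was the exception of the class, as it was listed at 0 in Rep1 but at 2.52 TPM in Rep2. Of the 200 genes nearest to it in Rep2 level, 51.0% were also listed at 0 in Rep1. The leading kainate subunit was *GRIK1* in Rep1, with 46.2% of the class TPM, and *GRIK3* in Rep2, with 32.0%, closely followed by *GRIK5* with 30.9%.

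NMDA receptors need *GRIN1*, which binds glycine, together with a *GRIN2* subunit, which binds glutamate. *GRIN1* was low, at 3.08 TPM in Rep1 against 0.269 TPM in Rep2, values that rested on at least 2 and 3 reads. *GRIN2D* was at 2.52 and 0.169 TPM, from at least 13 and 15 reads, and *GRIN2B* at 0.218 and 0.00422 TPM. *GRIN2A* and *GRIN2C* were listed at 0 in Rep1 but at 0.880 and 0.746 TPM in Rep2. *GRIN3A* was at 0.956 and 0.167 TPM. These 6 subunits were all at or under 3.08 TPM in both libraries. *GRIN3B*, a glycine-binding subunit, stood apart from them in Rep2, at 18.8 TPM, and was listed at 0 in Rep1. Its exons share 82 bases with those of *TMEM259* on the opposite strand, a gene at 60.4 TPM in Rep1 against 127 TPM in Rep2. The part of such reads in the value of *GRIN3B* was not tested. *GRIN3B* made up 89.4% of the NMDA subunit TPM in Rep2, and it made the NMDA class the only one of the glutamate classes with a higher sum in Rep2 (21.0 TPM) than in Rep1 (6.78 TPM).

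The delta subunits bind glycine and D-serine and link synapses through cerebellins. *GRID1* was at 4.72 TPM in Rep1 against 0.760 TPM in Rep2, from at least 13 and 36 reads, and was thus among the members at least 2-fold higher in Rep1.

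Metabotropic receptors fall into group I (such as *GRM5*), which raises intracellular calcium, and groups II (*GRM2* and *GRM3*) and III (*GRM4*, *GRM7* and *GRM8*), which lower cyclic AMP. Group III led in Rep1. *GRM8* was at 40.3 TPM there and 1.81 TPM in Rep2, from at least 22 and 17 reads (mean 21.1 ± 27.2 TPM). *GRM7*, a presynaptic receptor, was at 20.5 TPM in Rep1, from at least 57 reads, and 0.146 TPM in Rep2, from at least 7. *GRM3*, a metabotropic receptor known from astrocytes, was the reverse, at 0.545 TPM in Rep1 against 8.16 TPM in Rep2, the latter from at least 257 reads. The Rep1 value may rest on as little as 1 read, so no exact fold is given, and the log2 difference of -2.57 was -2.03 after scaling by the median of ratios. *GRM3* made up 74.2% of the metabotropic TPM there, against 0.841% in Rep1. It was higher in the same library as the astrocyte markers, whose sum was 6.67-fold higher in Rep2. The sums of oligodendrocyte precursor (6.47-fold), oligodendrocyte (4.60-fold), microglial and endothelial and mural markers, before scaling, were higher there too. Such sums follow their highest genes. *MBP* gave most of the oligodendrocyte sum, though all 6 of these markers were at least 2-fold higher in Rep2. Of the precursor and microglial markers, 3 of 6 and 2 of 6 differed by less than 2-fold. The part of any of these cells in the level of *GRM3* was not tested. *GRM5* was at 3.09 and 0.372 TPM and *GRM2* at 0.497 and 0.376 TPM. *GRM4* was listed at 0 in Rep1 but at 0.0364 TPM in Rep2.

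**Figure D3:**
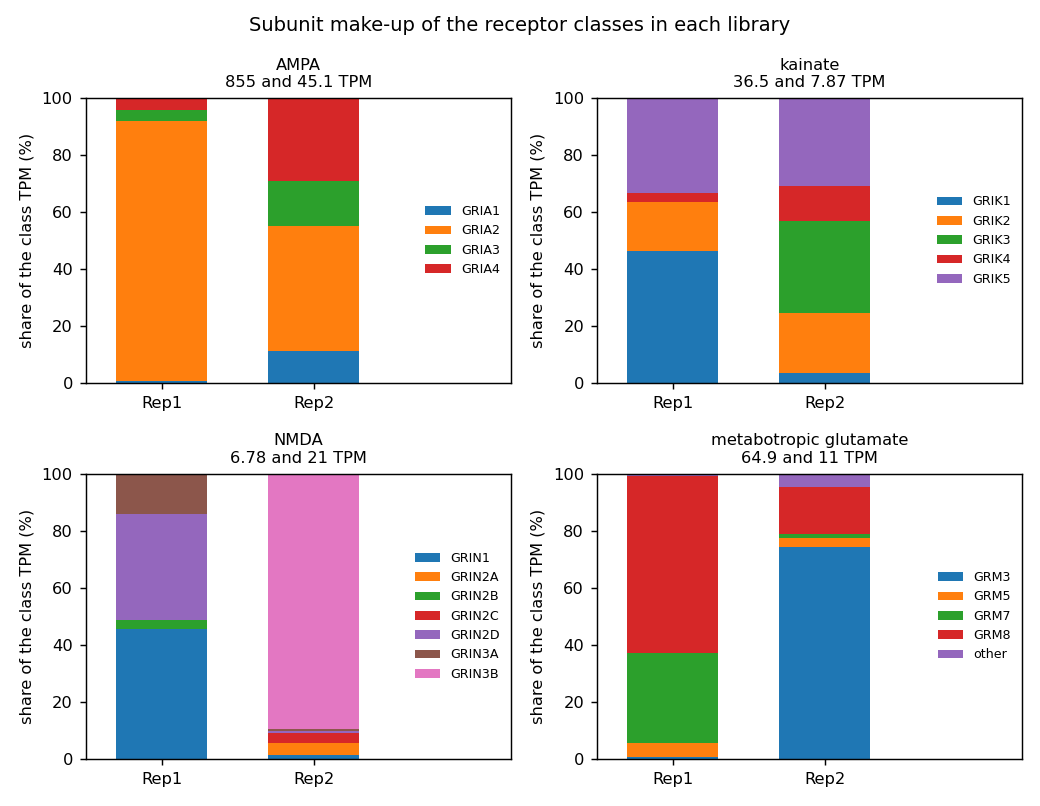
Share of each subunit in the summed TPM of its class, in percent, for Rep1 and Rep2 in 4 receptor classes, with the sums of both libraries above each panel and the lowest metabotropic subunits drawn as 1 segment. *GRIA2* fills 90.8% of the AMPA bar in Rep1, and the leading subunit differs between the libraries in the kainate, NMDA and metabotropic panels.

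GABA-A receptors usually join alpha and beta subunits with a gamma subunit, and the alpha subunit sets much of their pharmacology. Of the alpha subunits described here, 2 were higher in Rep1 and 2 in Rep2. *GABRA4* was at 4.87 TPM in Rep1 and listed at 0 in Rep2, and *GABRA2* was at 2.53 and 0.0368 TPM. *GABRA5*, which is found mostly outside synapses, was listed at 0 in Rep1 but at 18.1 TPM in Rep2, a level at which 14.5% of the nearest genes were listed at 0 in Rep1. *GABRA3* was above 0 in both, at 7.59 TPM in Rep1 against 23.1 TPM in Rep2, from at least 8 and 419 reads (mean 15.4 ± 11.0 TPM). It was one of the 7 members at least 2-fold higher in Rep2, but after scaling by the median of ratios its log2 difference was -0.40, short of 2-fold. *GABRA3* and *GABRA5* made up 56.0% and 43.9% of the alpha subunit TPM in Rep2, against 10.5% and 0% in Rep1.

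Of the beta subunits, *GABRB1* was at 19.1 TPM in Rep1 against 4.45 TPM in Rep2, from at least 1 and 4 reads. *GABRB2*, the usual beta subunit of synaptic receptors in the brain, was at 1.06 and 0.491 TPM, from at least 1 and 8 reads. Both were thus above 0 in each library, but how many reads their Rep1 values rest on is not known. Among the gamma subunits, *GABRG3* was listed at 0 in Rep1 but at 1.60 TPM in Rep2, and 56.5% of the genes nearest to it in Rep2 were also listed at 0 in Rep1.

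The other subunits divided by library as well. *GABRE*, the epsilon subunit, had the highest level of any member in Rep2, at 30.1 TPM, and was listed at 0 in Rep1, as were 15.0% of the genes nearest to it in Rep2. *GABRD* and *GABRQ*, the delta and theta subunits, were also listed at 0 in Rep1, at 0.421 and 0.382 TPM in Rep2. The rho subunits form channels of their own and are best known from bipolar cells of the retina. *GABRR2* was at 45.3 TPM in Rep1 and *GABRR1* at 0.991 TPM, and both were listed at 0 in Rep2. Of the genes nearest to *GABRR2* in Rep1 level, 0.5% were listed at 0 in Rep2. *GABRR2* was higher in the same library as the summed markers of bipolar cells, photoreceptors, horizontal and amacrine cells and neurons in general. The part of any of these cells in its level was not tested.

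Many GABA-A genes lie in clusters of neighbours on Mmul_10, with gaps under 2000000 bases, and the members of 3 such clusters did not share a level. On chromosome X (147959874 to 148660699), *GABRE* and *GABRA3* on the minus strand were at 30.1 and 23.1 TPM in Rep2, and *GABRQ* on the plus strand was at 0.382 TPM. All 3 of these genes were higher in Rep2. On chromosome 5 (45359073 to 46799981), *GABRB1*, *GABRA4* and *GABRA2* were at 19.1, 4.87 and 2.53 TPM in Rep1 and *GABRG1* was listed at 0 in both libraries. On chromosome 4 (84091275 to 84228412), *GABRR2* stood at 45.3 TPM and *GABRR1* at 0.991 TPM in Rep1. On these 2 chromosomes the members above 0 were higher in Rep1. Other clusters are not described here, so these directions cannot be extended to them.

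**Figure D4:**
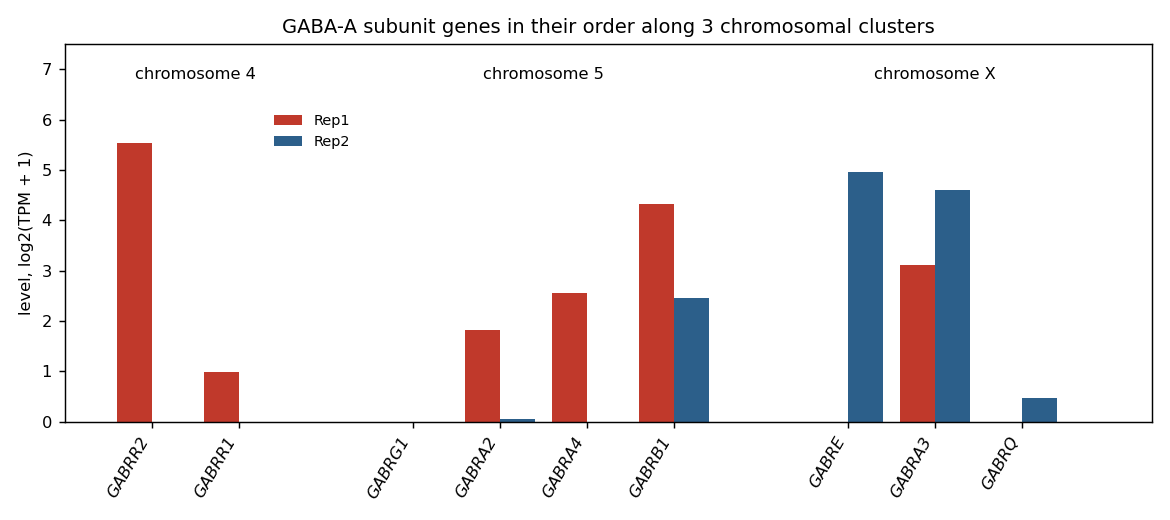
Level of 9 clustered GABA-A subunit genes as log2(TPM + 1), in their order along each chromosome (not to scale), with bars from 0 for Rep1 and Rep2 and no bar where a gene is listed at 0. The genes on chromosomes 4 and 5 are higher in Rep1 where they are above 0, and those on chromosome X are higher in Rep2.

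The GABA-B receptor needs both of its subunits, *GABBR1* to bind GABA and *GABBR2* to reach the membrane and signal. *GABBR1* was at 25.9 TPM in Rep1 against 11.7 TPM in Rep2, from at least 62 and 483 reads (mean 18.8 ± 10.01 TPM). *GABBR2* was at 3.97 and 0.267 TPM, from at least 13 and 15 reads. Both were thus higher in Rep1, and *GABBR1* was the higher one in each library, with 86.7% and 97.8% of the pair's TPM.

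Set in order of mean TPM, the members ran from *GRIA2* down to *GRM4*. As the measure of spread, the SD of a single library was estimated from how far Rep1 and Rep2 were apart in the 200 genes with the closest means. It also holds any shift shared by those genes, which would cancel between neighbours, so the number of close pairs may be too high. Of the 41 pairs of neighbours in this order, 39 were apart by less than 1 such SD. The exceptions included *GRIA4* and *GABRR2*, 1.01 SDs apart. In 6 of the 41 pairs the higher gene by mean was also the higher one in both libraries. Most of the order is therefore not fixed by these data.

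Genes that work with the receptors were also more often higher in Rep1 than in Rep2. Of the 27 listed partners of glutamate receptors, such as scaffolds and auxiliary subunits, 25 were above 0, with 10 at least 2-fold higher in Rep1, 3 in Rep2 and a median difference of 0.78, beside 14.8% and 51.3% of all genes and their median of -1.07. *DLG4*, the postsynaptic density scaffold PSD-95, was at 144 TPM in Rep1 against 3.57 TPM in Rep2, whereas its relatives *DLG1* (78.9 and 44.2 TPM) and *DLG2* (74.4 and 41.7 TPM) differed by less than 2-fold. *PICK1*, which moves AMPA receptors, was at 63.6 and 42.0 TPM. Of the 10 partners of GABA receptors, 6 were at least 2-fold higher in Rep1 and 1 in Rep2, with a median difference of 1.94, beside the same shares and median of all genes. *GPHN*, which encodes gephyrin, the anchor of GABA-A receptors at synapses, was at 556 and 31.0 TPM. *CLPTM1*, which holds GABA-A subunits back inside the cell, was at 359 and 33.1 TPM, and *KCTD12*, an auxiliary subunit of GABA-B receptors, at 56.6 and 5.71 TPM. *GABARAP* was level, at 1007 TPM in both.

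Enzymes that make and break down the transmitters went both ways. Of 9 such genes, 3 were at least 2-fold higher in Rep1 and 3 in Rep2, again beside 14.8% and 51.3% of all genes, with a median difference of -0.05 against -1.07. *GAD1*, which makes GABA and was also on the amacrine cell list, was at 189 TPM in Rep1 against 1.35 TPM in Rep2. *GLUD1*, which links glutamate to the citric acid cycle, was also higher in Rep1, at 446 and 86.8 TPM. *GLUL*, the glutamine synthetase of astrocytes and oligodendrocytes, was at 364 TPM in Rep1 against 1506 TPM in Rep2.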

How the data were processed

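Per the paper's methods and the submitters' processing notes, the authors checked reads with FastQC 0.11.9, trimmed them with Trim Galore 0.6.6, aligned them to Mmul_10 with STAR 2.7.1a, counted reads per gene with featureCounts 1.5.3 and deposited TPM values for 16684 genes in 2 libraries. The libraries were made with the SMARTer Ultra Low Input kit. Each column sums to 1000000, so read totals are unknown, and the gene lengths and strand setting are not given in the sources used here. The columns Rep1 and Rep2 match neither sample title and were used as replicates.

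The scripts used Python 3.11 with pandas 2.3.3, numpy 2.4.6 and scipy 1.17.1, with matplotlib 3.10.9 for figures, and were tested on simulated data. A pseudocount of 1 TPM was added before taking log2, so differences of low genes are understated. Alternatives were a pseudocount of 0.1, median-of-ratios scaling, leaving out the 10 most abundant genes, other gene sets, the 500 nearest genes and each library alone. Smallest read numbers came from the ratios of a gene's values, within 1e-12, and 99.9% of 10168 genes gave whole ratios. Sequences and coordinates are from the RefSeq annotation of Mmul_10. The rule names every member, and of each partner list up to 4 genes of highest mean TPM. Members and lists were chosen with earlier results of these data known. A gene that the symbol patterns would also match, and the values of some single members and list genes, are not reported here, and those members enter only counts, sums and medians.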

Additional observations from a re-analysis of the deposited data

How the results depend on the processing

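No paired analysis was possible because a single condition was sequenced. The number of members at or above 1 TPM on the mean, 30, was 13 at a level of 10 TPM, which is stricter by construction, and ran from 17 (Rep2) to 26 (Rep1) in single libraries. With a pseudocount of 0.1, which widens the differences of low genes, 11 members instead of 7 were at least 2-fold higher in Rep2. The number at least 2-fold higher in Rep1 ran from 22 to 26 under the alternatives. The share of ionotropic glutamate members in the members' TPM, 69.1% on the mean, ran from 41.3% to 73.2% in single libraries, and that of GABA-A members, 22.6% on the mean, from 19.3% to 46.0%. Within their classes, the single libraries gave from 43.9% to 90.8% for *GRIA2*, from 3.70% to 46.2% for *GRIK1*, from 0% to 89.4% for *GRIN3B* and from 16.5% to 62.1% for *GRM8*. Leaving out Rep1 thus ended the lead of *GRIK1* and *GRM8*, and leaving out Rep2 that of *GRIN3B*. Of the levels and percentiles of single members, 114 stayed within the spread of the libraries and 23 moved beyond it, not counting single libraries. That spread was each member's own and often wide, so *GRIA2* counted as within it at 398 TPM and, by the median of ratios, 897 TPM. Means of members at 0 in Rep1 cannot move under that scaling. The tally is therefore no measure of robustness. The depth of Rep1 limits all low members. For 9 of the 27 with whole read ratios, the smallest fitting number there was 3 reads or fewer, which is a lower bound only.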
